A study of Rattus norvegicus with 18 samples.

Results

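Glucocorticoid hormones, chiefly corticosterone in the rat, act through 2 receptors inside the cell, are regenerated from an inactive form within tissues, and switch on a set of quickly responding genes. These genes were followed in subcutaneous abdominal fat and hypothalamus of rats after Roux-en-Y gastric bypass (RYGB), which reduces the stomach to a pouch and routes food past the duodenum. The genes were taken by symbol and cover the receptors Nr3c1 and Nr3c2, the activating enzyme Hsd11b1, and the targets Fkbp5, Tsc22d3, Sgk1, Zbtb16, Klf9 and Dusp1. Of these 9 genes, 8 were found as the only platform symbol of a probe set, with 13 of the 31042 probe sets that were not array controls. Zbtb16 was not analysed here. Each tissue had 3 arrays from RYGB-Success rats, which were losing weight after the bypass, 3 from RYGB-Fail rats, which were gaining weight, and 3 from Pair-Fed rats, which received the same amount of food as the treated rats. The sources used here give neither strain, sex, age and time after surgery nor whether Pair-Fed rats had a sham operation. The replicates are biological per the series' design text.

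The deposited values are MAS5 signals, 1 per probe set and array, scaled by the authors to a common trimmed mean, and differences below are of log2 signal. Of the 13 probe sets, 9 covering all 8 genes passed the filter on low signal in each tissue and were tested. The other 4, in both tissues, were 1368222_at of Nr3c1, 1387882_at and 1390076_at of Klf9, and 1368147_at of Dusp1. Signals of different probe sets depend on their probes, so only arrays of the same probe set were compared. Adipocyte markers summed to 70865 to 193964 on the fat arrays and to 1492 to 3270 on the hypothalamus arrays. Neuron markers summed to 505 to 1960 in fat and to 30085 to 41732 in hypothalamus. The third RYGB-Fail fat array stood apart, with a median signal of 288, against 98.2 to 200.0 on the other 8, and its correlation with each of those had a median of 0.730. In bulk tissue, fewer cells of a type and less RNA per cell cannot be told apart.

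As background, the glucocorticoid receptor rests in the cytosol with Hsp90 chaperones, moves to the nucleus when hormone binds, and there acts at response elements that often lie far from the gene start. The mineralocorticoid receptor also binds corticosterone, with higher affinity than the glucocorticoid receptor, and in much of the brain it is occupied at low hormone levels. Fat and liver carry the enzyme 11 beta-hydroxysteroid dehydrogenase type 1, which returns 11-dehydrocorticosterone to corticosterone. In the hypothalamus the same hormone feeds back on the neurons that start its release.

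Windows around annotated starts of the target genes Fkbp5, Dusp1 and Sgk1 are shown first, from RefSeq on GRCr8. Each runs from 250 bases before the start to 50 bases after it. Capitals mark a cAMP response element (TGACGTCA, its own reverse complement) or a TATA box (TATAAA or its reverse complement). Sgk1 and Dusp1 are shown for the motifs found, and Fkbp5 as the receptor's co-chaperone, measured by 2 tested probe sets.
Fkbp5 (chr20:6543506-6543805, minus strand): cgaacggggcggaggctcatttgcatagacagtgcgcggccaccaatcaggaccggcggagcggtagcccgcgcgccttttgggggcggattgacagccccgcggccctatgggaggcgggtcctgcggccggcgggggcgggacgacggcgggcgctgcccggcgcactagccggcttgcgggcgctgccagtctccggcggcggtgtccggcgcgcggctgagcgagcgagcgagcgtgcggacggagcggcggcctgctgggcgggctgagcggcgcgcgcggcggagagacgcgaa
Dusp1 (chr10:17184603-17184902, plus strand): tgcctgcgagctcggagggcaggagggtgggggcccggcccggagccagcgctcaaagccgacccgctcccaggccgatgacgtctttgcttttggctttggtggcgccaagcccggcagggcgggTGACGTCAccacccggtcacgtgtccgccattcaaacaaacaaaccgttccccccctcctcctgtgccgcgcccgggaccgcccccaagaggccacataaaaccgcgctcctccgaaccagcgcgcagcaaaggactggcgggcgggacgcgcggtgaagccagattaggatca
Sgk1, the first start (chr1:24807182-24807481, minus strand): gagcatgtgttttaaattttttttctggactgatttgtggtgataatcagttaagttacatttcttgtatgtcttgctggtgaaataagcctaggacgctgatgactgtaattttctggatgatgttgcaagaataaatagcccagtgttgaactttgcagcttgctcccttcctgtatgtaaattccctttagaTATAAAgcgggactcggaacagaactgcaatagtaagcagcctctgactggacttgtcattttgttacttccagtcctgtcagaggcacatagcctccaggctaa
Sgk1, the third start (chr1:24804782-24805081, minus strand): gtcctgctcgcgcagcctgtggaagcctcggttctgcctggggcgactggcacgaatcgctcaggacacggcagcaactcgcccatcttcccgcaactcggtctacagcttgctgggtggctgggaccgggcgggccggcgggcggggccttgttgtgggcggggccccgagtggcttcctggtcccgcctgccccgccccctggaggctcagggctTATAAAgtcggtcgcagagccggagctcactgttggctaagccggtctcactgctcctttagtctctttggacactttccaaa

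Across the 33469 rat windows of this length, a cAMP response element occurred in 1.83% and a TATA box in 14.2%. The table held 11 windows for 6 of the genes: Fkbp5, Tsc22d3, Sgk1, Klf9, Dusp1 and Nr3c1. Dusp1 was the only one with the cAMP response element, at -124 to -117 from the start. The TATA box was present in 3 of the 11, at -55 to -50 of the first Sgk1 start, at -33 to -28 of the third, and at -44 to -39 of the third Tsc22d3 start. The full palindromic glucocorticoid response element (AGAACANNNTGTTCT) occurred in 0.0149% of all windows and its half-site (TGTTCT or AGAACA, which the palindrome contains) in 20.7%. Neither was in any of the 11 windows, which says only that these letters are not there. Base composition differed between windows, also between those of 1 gene. The Sgk1 windows were 40.67%, 51.67% and 66.0% G and C. The Fkbp5 window was 77.0% and the second Nr3c1 window 79.0%, against a median of 51.67% over all windows.

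No probe set of these genes passed an adjusted p of 0.05 (limma, Benjamini-Hochberg over 18625 probe sets) in any comparison of treatment groups in either tissue, under any setting tried. With all 9 arrays of a tissue, few probe sets of any gene did. Without the third RYGB-Fail array, 1116 probe sets passed for RYGB-Success against RYGB-Fail in fat, with no member among them. Over all 9 arrays, in fat the share of all probe sets that passed was 0% for RYGB-Success against Pair-Fed, for RYGB-Fail against Pair-Fed, for RYGB-Success against RYGB-Fail, and for both bypass groups against Pair-Fed. In hypothalamus it was 0.0107% for RYGB-Success against Pair-Fed, 0.00537% for RYGB-Success against RYGB-Fail, and 0% for RYGB-Fail and for both bypass groups against Pair-Fed. The levels that follow therefore describe these arrays, with the size and interval of each difference.

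At an unadjusted p under 0.05, the 9 member probe sets gave 1 in fat for RYGB-Success against Pair-Fed, where 4.86% of all probe sets did, and 0 for RYGB-Fail against Pair-Fed, where 2.69% did. RYGB-Success against RYGB-Fail in fat gave 1 (5.69% of all), and both bypass groups against Pair-Fed gave 0 (3.7%). Hypothalamus gave 2 for RYGB-Success against Pair-Fed (13.1%), 0 for RYGB-Fail against Pair-Fed (2.39%), 1 for RYGB-Success against RYGB-Fail (6.01%) and 2 for both bypass groups against Pair-Fed (7.74%). Counting instead the member probe sets whose arrays did not overlap between groups, fat gave 1 for RYGB-Success against Pair-Fed (18.6% of all probe sets), 0 for RYGB-Fail against Pair-Fed (6.9%), 2 for RYGB-Success against RYGB-Fail (7.87%) and 0 for both bypass groups against Pair-Fed (2%). The same counts in hypothalamus were 2 (18%), 1 (9.18%), 2 (10.5%) and 1 (3.65%), in the same order. With only 9 probe sets, a count of 1 or 2 is a description, and the 2 without overlap between RYGB-Success and RYGB-Fail in fat both measure Fkbp5. The single fat member at an unadjusted p under 0.05, in either comparison, is Fkbp5 1380611_at, which passed the filter on low signal only through its RYGB-Success arrays and so supports nothing. Scaling bears on every direction below: the median over all probe sets for RYGB-Success against Pair-Fed was 0.11 in fat and 0.05 in hypothalamus as deposited, and -0.27 and -0.19 after median centring.

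**Figure D1:**
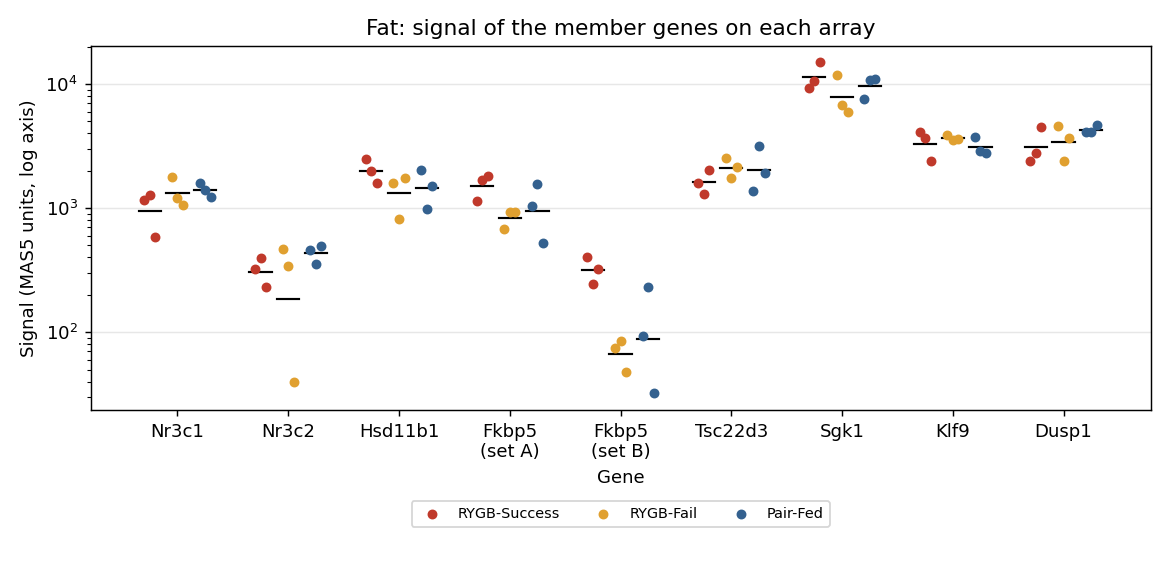
Signal (log axis, MAS5 units) of the 9 tested probe sets on each of the 9 fat arrays, with RYGB-Success, RYGB-Fail and Pair-Fed from left to right within each gene; a bar is the mean of the log2 signals. Fkbp5 set A is 1388901_at and set B 1380611_at; in set B the 3 RYGB-Success arrays lie between 244 and 399.8, above all RYGB-Fail and Pair-Fed arrays, and the Nr3c2 value of 39.7 is the third RYGB-Fail array.

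Nr3c1, the glucocorticoid receptor (chromosome 18, 31522783 to 31644508), had signals of 1162, 1277 and 585 in RYGB-Success fat, 1786, 1210.3 and 1054 in RYGB-Fail fat, and 1593, 1388 and 1239 in Pair-Fed fat. The third RYGB-Success array was the lowest of the 9, and the groups overlapped. The difference of log2 signal was -0.55 ± 0.37 (SE, n = 3 each) for RYGB-Success against Pair-Fed, with a 95% interval of -1.35 to 0.25 (limma adjusted p = 0.975), and -0.20 without the third RYGB-Success array. RYGB-Fail fat lay nearer, at -0.09 ± 0.37 against Pair-Fed (adjusted p = 1). Hypothalamus held Nr3c1 within a narrow range, with 838, 579 and 779 in RYGB-Success, 748, 717 and 633 in RYGB-Fail, and 865, 747 and 839 in Pair-Fed rats. All 3 groups overlapped there, and the log2 signal had an SD of 0.19 within groups, against 0.43 in fat. RYGB-Success minus Pair-Fed was -0.17 ± 0.22 in hypothalamus (interval -0.66 to 0.31, adjusted p = 0.758), and -0.79 when the dim second probe set was averaged in. The second Nr3c1 probe set was dim, at 3.93 to 387 in fat and 6.98 to 62.1 in hypothalamus, and was not tested.

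Nr3c2, the mineralocorticoid receptor (chromosome 19, 47619853 to 47964089), gave the lowest p of the genes in hypothalamus. Signals were 668, 447 and 465 in RYGB-Success, 707, 691 and 969 in RYGB-Fail and 1062, 805 and 806 in Pair-Fed hypothalamus. Every RYGB-Success array lay below every RYGB-Fail and Pair-Fed array, while the RYGB-Fail and Pair-Fed arrays overlapped. RYGB-Success minus Pair-Fed was -0.77 ± 0.25 (95% interval -1.31 to -0.23, unadjusted p = 0.00813, limma adjusted p = 0.255). RYGB-Success minus RYGB-Fail was -0.59 ± 0.25 (interval -1.13 to -0.05, adjusted p = 0.784), and RYGB-Fail minus Pair-Fed -0.18 ± 0.25 (adjusted p = 1). Over the 17 other settings the first difference ran from -1.01 to -0.56, with adjusted p from 0.105 to 0.448. The sign of each of these 3 differences was negative under all 17.

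In fat Nr3c2 read 320.0, 394 and 231 in RYGB-Success, 468, 344 and 39.7 in RYGB-Fail and 456, 354 and 499 in Pair-Fed rats. The third RYGB-Fail array was far below the rest, and the groups overlapped. RYGB-Success minus Pair-Fed was -0.49 ± 0.75 (adjusted p = 0.975). RYGB-Fail minus Pair-Fed was -1.22 ± 0.75 (adjusted p = 1) with that array and -0.11 (adjusted p = 0.956) without it. The test of fat against hypothalamus for the effect of RYGB-Success against Pair-Fed gave Nr3c2 a difference of 0.28 ± 0.84 (adjusted p = 0.95), so a difference between the tissues was not shown.

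Hsd11b1 encodes 11 beta-hydroxysteroid dehydrogenase type 1 (chromosome 13, 107277526 to 107327462). In hypothalamus its signals were 1187, 1036 and 1497 in RYGB-Success, 1014, 1068 and 1037 in RYGB-Fail and 924, 871 and 744 in Pair-Fed rats. All 6 bypass arrays lay above all 3 Pair-Fed arrays, and the 2 bypass groups overlapped each other. The difference from Pair-Fed was 0.54 ± 0.22 for RYGB-Success (interval 0.08 to 1.00, unadjusted p = 0.0254, limma adjusted p = 0.328) and 0.30 ± 0.22 for RYGB-Fail (adjusted p = 1). Both bypass groups together differed by 0.42 ± 0.19 (unadjusted p = 0.0408, adjusted p = 0.632). Median centring of the arrays lowered the RYGB-Success difference to 0.30 (adjusted p = 0.635), and over all 17 settings it stayed between 0.30 and 0.66.

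Other cell types' markers differed between the same hypothalamus arrays. Macrophage and microglia markers, 5 of 6 tested higher in RYGB-Success and 6 of 6 in RYGB-Fail than in Pair-Fed, summed to 1649 to 2014 in RYGB-Success, 1944 to 2223 in RYGB-Fail and 1296 to 1597 in Pair-Fed rats. Like Hsd11b1, these sums were higher on all 6 bypass arrays. The mean log2 signal of the same markers overlapped between RYGB-Success (6.56 to 7.13) and Pair-Fed (6.28 to 6.97), with 7.12 to 7.40 in RYGB-Fail. Choroid plexus and ependyma markers, 5 of 6 and 6 of 6 higher, summed to 13476 to 21113 in RYGB-Success, 14724 to 19184 in RYGB-Fail and 8434 to 13748 in Pair-Fed rats. The part of either list in the Hsd11b1 and Nr3c2 values was not tested.

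Fat Hsd11b1 was 2499.5, 1978 and 1592 in RYGB-Success, 1595, 819 and 1752 in RYGB-Fail and 2042, 984 and 1494 in Pair-Fed rats. The groups overlapped, and the lowest and highest arrays were 3.05-fold apart. RYGB-Success differed from Pair-Fed by 0.46 ± 0.39 (interval -0.38 to 1.31, adjusted p = 0.975) and from RYGB-Fail by 0.59 ± 0.39 (adjusted p = 0.895). H6pd, the enzyme that supplies Hsd11b1 with NADPH in the endoplasmic reticulum, read 1206, 838 and 949 in RYGB-Success fat, 1074, 669 and 755 in RYGB-Fail fat and 968, 806 and 730.2 in Pair-Fed fat, with overlapping groups.

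**Figure D2:**
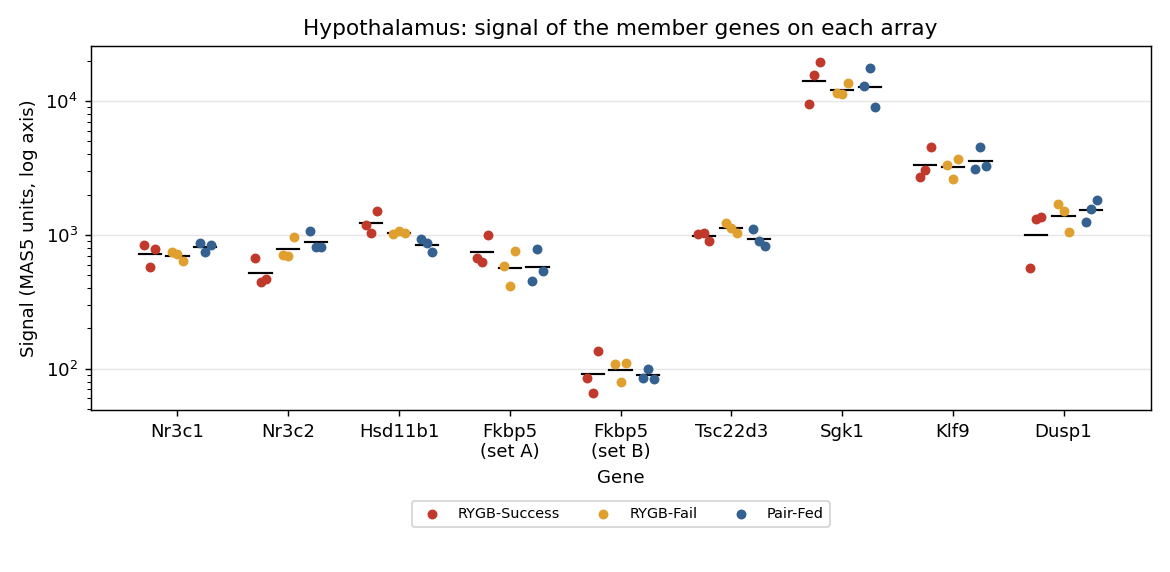
Signal (log axis, MAS5 units) of the same 9 probe sets on each of the 9 hypothalamus arrays, with RYGB-Success, RYGB-Fail and Pair-Fed from left to right within each gene; a bar is the mean of the log2 signals. Hsd11b1 lies higher on all 6 bypass arrays (1014 to 1497) than on the 3 Pair-Fed arrays (744 to 924), and Nr3c2 is lowest on the 3 RYGB-Success arrays (447 to 668).

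Fkbp5 is a co-chaperone that lowers the hormone affinity of the receptor complex and is itself induced by glucocorticoids (chromosome 20, 6458931 to 6577227). Both of its probe sets had their highest mean in RYGB-Success fat, and neither passed. Probe set 1388901_at read 1132, 1679.6 and 1805 in RYGB-Success fat, 676, 931 and 924 in RYGB-Fail fat and 1042, 1552 and 523 in Pair-Fed fat. Every RYGB-Success array lay above every RYGB-Fail array, while the Pair-Fed arrays spanned both. The dimmer probe set 1380611_at read 399.8, 244 and 324 in RYGB-Success fat, 74.9, 84.9 and 47.4 in RYGB-Fail fat and 92.9, 229 and 32.1 in Pair-Fed fat. Here all 3 RYGB-Success arrays lay above all 6 others, with the second Pair-Fed array close below them.

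Between RYGB-Success and RYGB-Fail fat the Fkbp5 difference was 0.85 ± 0.41 in 1388901_at (interval -0.04 to 1.75, limma adjusted p = 0.887), and 0.93 without the third RYGB-Fail array (adjusted p = 0.242). Against Pair-Fed fat it was 0.67 ± 0.41 (adjusted p = 0.975), and 0.25 without the third Pair-Fed array. The dimmer probe set is given as a description only. Its geometric means were 316 in RYGB-Success, 67.1 in RYGB-Fail and 88.1 in Pair-Fed fat, and a probe set needed a mean of at least 88.9 over the fat arrays to be tested, so it passed only through RYGB-Success. Its fitted differences of 2.24 from RYGB-Fail and 1.84 from Pair-Fed are not measured sizes. All RYGB-Fail arrays lie below that level, and the Pair-Fed mean lies just under it, with arrays on both sides. With a pseudocount they were 1.46 and 1.16, and without the third Pair-Fed array the second was 1.11.

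Other cell types' markers differed between the same fat groups. Skin and mammary epithelium markers, 5 of 10 tested and all higher in RYGB-Success than in Pair-Fed fat, summed to 697 to 30353 in RYGB-Success, 265 to 2041 in RYGB-Fail and 509 to 696 in Pair-Fed fat. Fibroblast and progenitor markers, 9 of 9 lower than in Pair-Fed, summed to 25978 to 74254 in RYGB-Success, 41428 to 95440 in RYGB-Fail and 93754 to 127300 in Pair-Fed fat. Blood cell markers, 4 of 4 higher, summed to 15193 to 41590 in RYGB-Success, 2910 to 7126 in RYGB-Fail and 5225 to 8565 in Pair-Fed fat. Skeletal muscle markers summed to 16063 to 30231 in RYGB-Success, 29458 to 244526 in RYGB-Fail and 12894 to 15714 in Pair-Fed fat. Lymphocyte markers, 6 of 6 tested higher than in Pair-Fed, summed to 2290 to 16824 in RYGB-Success, 1686 to 2510 in RYGB-Fail and 1789 to 2471 in Pair-Fed fat. Macrophage markers were lower in RYGB-Success than in Pair-Fed fat in 7 of 7, with sums of 6620 to 9241 in RYGB-Success, 5563 to 16037 in RYGB-Fail and 8755 to 22127 in Pair-Fed fat. Endothelium markers were higher there in 6 of 6, with sums of 33647 to 51575 in RYGB-Success, 18210 to 37232 in RYGB-Fail and 25253 to 38724 in Pair-Fed fat. The part of these lists in the Fkbp5 values was not tested.

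In hypothalamus Fkbp5 1388901_at read 673, 622 and 1002 in RYGB-Success, 582, 417 and 756 in RYGB-Fail and 449, 781 and 535 in Pair-Fed rats, all overlapping. RYGB-Success minus Pair-Fed was 0.39 ± 0.30 (interval -0.25 to 1.03, adjusted p = 0.59). Probe set 1380611_at lay between 65.3 and 136 on all 9 arrays and differed by 0.03 ± 0.40 (adjusted p = 0.982). The fat effect of RYGB-Success against RYGB-Fail exceeded the hypothalamic one by 0.46 ± 0.52 in 1388901_at (adjusted p = 0.883). No size is given for 1380611_at, for the reason above. It was the only member at an unadjusted p under 0.05 in that test, where 6.45% of 15531 probe sets were and 0% passed, and in the same test for RYGB-Success against Pair-Fed, where 8.26% were. Since this probe set passed the fat filter only through RYGB-Success, its p in either test supports nothing. The tissue differences for RYGB-Fail against Pair-Fed and for both bypass groups against Pair-Fed gave 0 members, where 3% and 5.22% of all probe sets reached that level.

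Tsc22d3, the glucocorticoid-induced leucine zipper that binds and restrains inflammatory transcription factors (chromosome X, 109006410 to 109066389), overlapped between all 3 groups in fat. Its signals were 1608, 1300.3 and 2017 in RYGB-Success, 2553, 1761 and 2127 in RYGB-Fail and 1362, 3184 and 1919 in Pair-Fed fat. Pair-Fed fat held both the second lowest and the highest array. RYGB-Success differed from Pair-Fed by -0.33 ± 0.35 (interval -1.10 to 0.44, adjusted p = 0.975), and by -0.00090 without the second Pair-Fed array. From RYGB-Fail it differed by -0.39 ± 0.35 (adjusted p = 0.905). Hypothalamic signals were 1018, 1034 and 895 in RYGB-Success, 1223, 1118 and 1035 in RYGB-Fail and 1107, 892 and 829 in Pair-Fed rats. Every RYGB-Success array lay below every RYGB-Fail array, with 1034 and 1035 the nearest, and the difference was -0.20 ± 0.21 (adjusted p = 0.849).

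Sgk1, a kinase that raises sodium channel and transporter activity (chromosome 1, 24799391 to 24916886), read 9325, 10611 and 14911 in RYGB-Success fat, 11909, 6821 and 6003 in RYGB-Fail fat and 7586, 10747 and 11045 in Pair-Fed fat. The groups overlapped, and RYGB-Success minus RYGB-Fail was 0.53 ± 0.32 (interval -0.15 to 1.22, adjusted p = 0.895). In hypothalamus it read 9466, 15510.0 and 19399.7 in RYGB-Success, 11396, 11306 and 13736 in RYGB-Fail and 12970.1, 17722 and 8986 in Pair-Fed rats. RYGB-Success and Pair-Fed rats covered nearly the same range, with a difference of 0.15 ± 0.27 (interval -0.42 to 0.73, adjusted p = 0.828).

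Klf9, a zinc finger transcription factor induced by glucocorticoids and thyroid hormone (chromosome 1, 230126646 to 230151641), varied least in fat, with an SD of 0.28 log2 within groups. It read 4139, 3674 and 2389 in RYGB-Success, 3917, 3551 and 3626 in RYGB-Fail and 3755, 2874 and 2792 in Pair-Fed fat. The intervals were -0.53 to 0.71 for RYGB-Success against Pair-Fed and -0.37 to 0.87 for RYGB-Fail against Pair-Fed (adjusted p = 0.982 and 1). In hypothalamus it read 2708, 3036 and 4513 in RYGB-Success, 3346, 2607 and 3707 in RYGB-Fail and 3090.2, 4496 and 3255 in Pair-Fed rats. The groups overlapped, with RYGB-Success minus Pair-Fed at -0.10 ± 0.24 (adjusted p = 0.891). The 2 dim Klf9 probe sets, 1387882_at and 1390076_at, reached at most 309.8 in fat and 92.9 in hypothalamus.

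Dusp1, a phosphatase that switches off MAP kinases (chromosome 10, 17184853 to 17187646), read 2380.4, 2785 and 4525 in RYGB-Success fat, 4624, 2408 and 3641 in RYGB-Fail fat and 4093, 4125 and 4662 in Pair-Fed fat. The groups overlapped, and the RYGB-Success difference from Pair-Fed was -0.46 ± 0.33 (interval -1.18 to 0.25, adjusted p = 0.975). In hypothalamus it read 567, 1308 and 1353 in RYGB-Success, 1691, 1501 and 1057 in RYGB-Fail and 1251, 1560.5 and 1817 in Pair-Fed rats. The first RYGB-Success array was the lowest by far. RYGB-Success minus Pair-Fed was -0.61 ± 0.32 (unadjusted p = 0.0782, adjusted p = 0.435), and -0.20 (adjusted p = 0.769) without that array. The second Dusp1 probe set was dim in hypothalamus, at 37.1 to 55.3 in RYGB-Success, 3.85 to 23.9 in RYGB-Fail and 14.3 to 36.9 in Pair-Fed rats. It did not pass the filter on low signal and gives no direction.

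**Figure D3:**
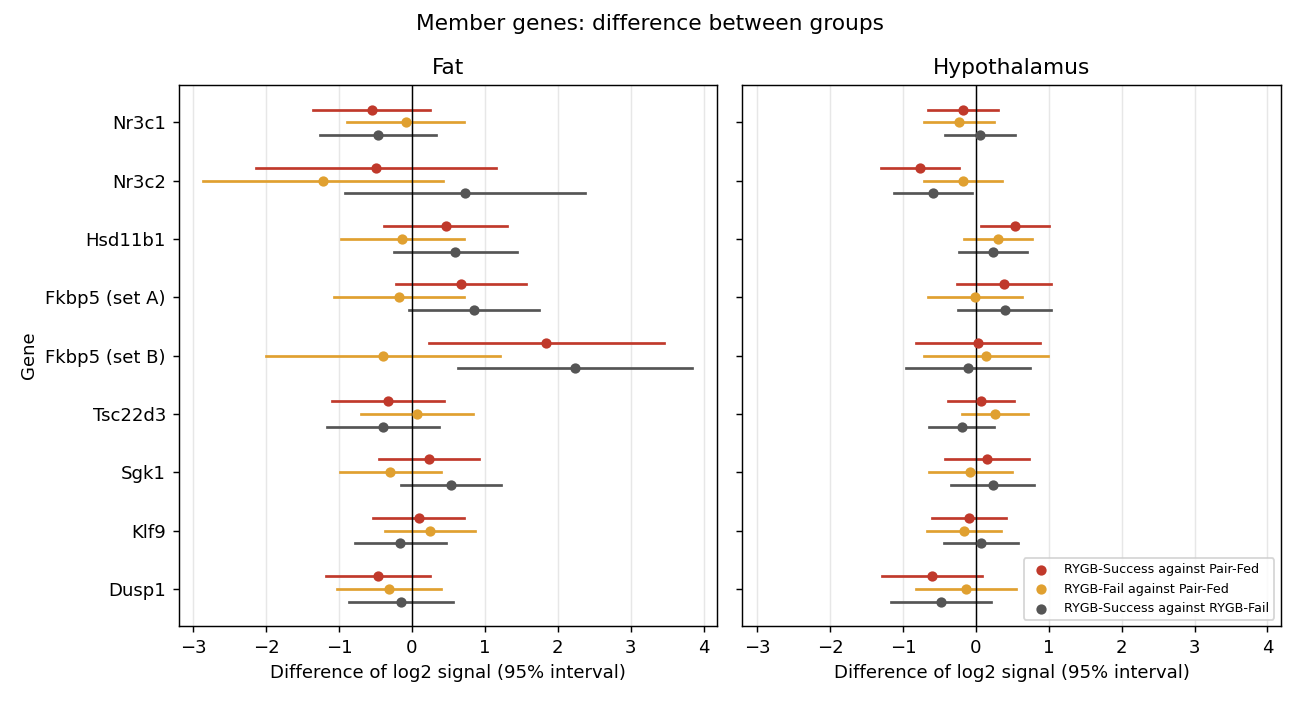
Difference of log2 signal between groups for each tested probe set (points) with its 95% interval from limma (lines), fat on the left and hypothalamus on the right, both on the same axis. Nearly all intervals cover 0. In fat those that do not are Fkbp5 set B for RYGB-Success against both other groups. That set is 1380611_at, whose lower groups have mean signals below the filter level. In hypothalamus they are Nr3c2 against both other groups and Hsd11b1 against Pair-Fed, each for RYGB-Success.

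Other glucocorticoid target genes were set beside these, 32 of 34 listed with a probe set, 27 of them tested in fat and 22 in hypothalamus. None passed in any comparison (limma). In fat their median difference was 0.40 for RYGB-Success against Pair-Fed, with 17 above 0 and 10 below, against a median of 0.11 over all probe sets. Of these 27, 4 had an unadjusted p under 0.05, where 4.86% of all probe sets did. RYGB-Fail against Pair-Fed gave a median of -0.10, against -0.09 over all probe sets, and RYGB-Success against RYGB-Fail 0.24, against 0.17.

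Mt2A, a metal-binding metallothionein, led the fat list. It read 6282, 6469.5 and 48865 in RYGB-Success, 3612, 4329 and 1883 in RYGB-Fail and 2293, 4137 and 2179.6 in Pair-Fed fat. All 3 RYGB-Success arrays lay above the 6 others and the third was far above all, for a difference from Pair-Fed of 2.20 ± 0.67 (unadjusted p = 0.00674, limma adjusted p = 0.697). Tgm2, a protein-crosslinking transglutaminase, read 925, 645 and 1669 in RYGB-Success, 275, 383 and 467 in RYGB-Fail and 384, 544 and 337 in Pair-Fed fat, again without overlap. It differed from Pair-Fed by 1.27 ± 0.42 and from RYGB-Fail by 1.45 ± 0.42 (adjusted p = 0.761 and 0.762). Cebpd, a transcription factor of early fat cell differentiation, differed from Pair-Fed by 1.27 ± 0.52 (adjusted p = 0.948), with 282, 413 and 909.8 in RYGB-Success against 136, 168 and 333 in Pair-Fed fat. Mt2A, Tgm2 and Cebpd were all highest on the third RYGB-Success array. Lymphocyte markers summed to 2290, 3413 and 16824 on the RYGB-Success arrays in order, and blood cell markers to 17604, 15193 and 41590. The part of these lists in the values was not tested.

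Lcn2, the iron-carrier binding protein lipocalin 2, differed most between RYGB-Success and RYGB-Fail fat, by 4.06 ± 1.47 (adjusted p = 0.827), though its RYGB-Fail level lies below that filter level, and its arrays were split. It read 63.4, 5625 and 3253 in RYGB-Success, 192, 129 and 10.1 in RYGB-Fail and 173, 349 and 306 in Pair-Fed fat, so that the first RYGB-Success array was below every Pair-Fed array. The skin and mammary epithelium markers summed to 697, 30353 and 12788 on the same 3 RYGB-Success arrays, in the same order as Lcn2, and their part in it was not tested. In RYGB-Fail fat the lowest p belonged to Anxa1, the anti-inflammatory protein annexin A1, and Angptl4, an inhibitor of lipoprotein lipase. Anxa1 read 8857, 5324 and 5407 in RYGB-Fail against 10394, 12520.0 and 11811 in Pair-Fed fat (-0.86 ± 0.27, adjusted p = 1). Angptl4 read 1284, 2278 and 951 in RYGB-Fail against 2702, 5359.7 and 4383 in Pair-Fed fat (-1.50 ± 0.51, adjusted p = 1). Per1, a clock gene with a known glucocorticoid response element, read 205, 294 and 405 in RYGB-Success, 206, 120.1 and 566 in RYGB-Fail and 185, 193 and 149 in Pair-Fed fat.

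In hypothalamus the median over the 22 targets was 0.14 for RYGB-Success against Pair-Fed, with 17 above 0, against 0.05 over all probe sets, and 4 of 22 reached an unadjusted p under 0.05, where 13.1% of all did. Tgm2, in another probe set than in fat, read 101, 80.4 and 173 in RYGB-Success, 70.7, 44.6 and 100.2 in RYGB-Fail and 30.2, 33.9 and 26.8 in Pair-Fed rats. Its RYGB-Success and RYGB-Fail arrays all lay above the Pair-Fed arrays, with differences of 1.89 ± 0.51 (adjusted p = 0.217) and 1.17 ± 0.51 (adjusted p = 1). Its Pair-Fed signals lie below the filter level of 52.7 in hypothalamus, as do those of Pgr given further on, so these sizes are not firmly measured. Tgm2 passed that filter only through the bypass groups, so its place among the 4 supports nothing. Cdkn1a, the cell cycle inhibitor p21, read 991, 989.9 and 826 in RYGB-Success, 226, 838 and 679 in RYGB-Fail and 226, 534 and 259 in Pair-Fed rats (1.57 ± 0.43 for RYGB-Success against Pair-Fed, adjusted p = 0.221). Mt1, another metallothionein, read 1863, 1842 and 2185 in RYGB-Success, 858, 1198 and 1442 in RYGB-Fail and 223, 1393 and 805 in Pair-Fed rats (1.64 ± 0.48, adjusted p = 0.229). Blood cell markers, 4 of 4 higher in RYGB-Success than in Pair-Fed, summed to 13546 to 26347 in RYGB-Success, 3512 to 8141 in RYGB-Fail and 3141 to 12520 in Pair-Fed hypothalamus, and their part in these values was not tested.

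**Figure D4:**
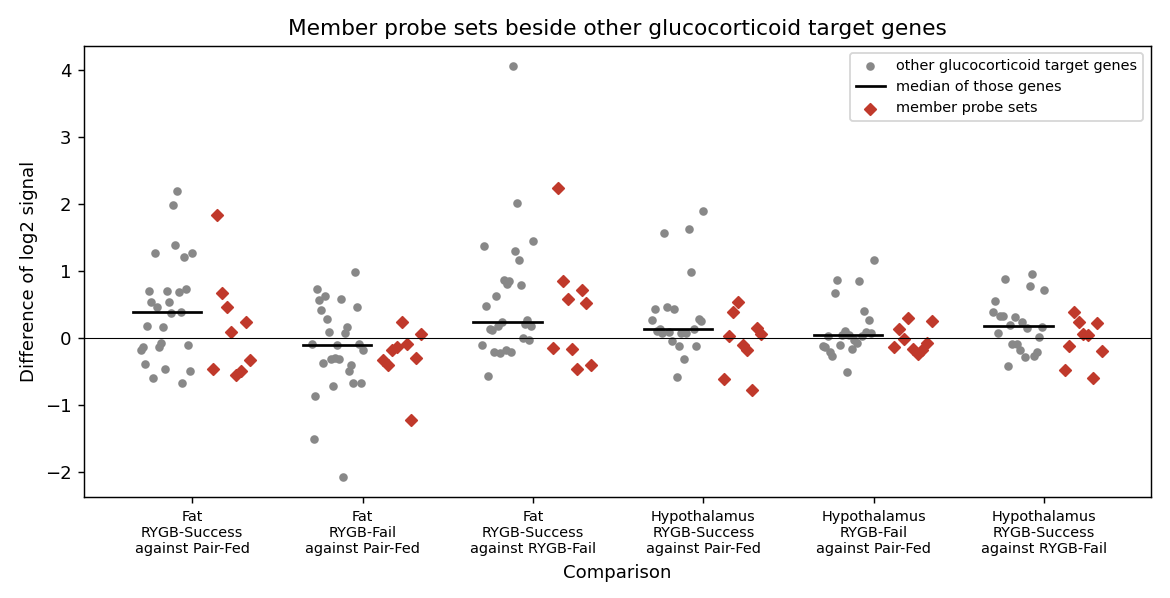
Difference of log2 signal for the other glucocorticoid target genes (grey points, black bar at their median) and the 9 member probe sets (red diamonds) in the 3 comparisons of each tissue. In fat the highest diamond for RYGB-Success, at 1.84 against Pair-Fed and 2.24 against RYGB-Fail, is Fkbp5 1380611_at, and the grey point at 4.06 is Lcn2. These are not measured sizes, since the lower group's mean signal lies below the filter level in each.

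Genes that carry the receptor to and at its targets were followed next. Of the chaperones and co-chaperones, 10 of 12 listed were tested in each tissue and none passed. Their median difference for RYGB-Success against Pair-Fed was -0.05 in fat and -0.05 in hypothalamus, and the fat range was -0.23 to 0.40. In hypothalamus Bag1 read 1289, 1117 and 1320 in RYGB-Success against 822, 835 and 1069 in Pair-Fed rats. Stip1 went the other way, at 846, 940 and 755 against 1189, 1236 and 1012. Neither gene's arrays overlapped between these groups, where 18% of all probe sets did not. Of 12 coregulators 10 were tested and none passed. In RYGB-Success hypothalamus 7 of these 10 were below 0, and 3 of the 10 were lower at an unadjusted p under 0.05. At that level were 13.1% of all probe sets in either direction, with 1154 of 18625 lower. These were Smarca4, the motor of a chromatin remodelling complex, at -1.07 ± 0.28 (adjusted p = 0.215), the corepressor Ncor1 at -0.79 ± 0.32 (adjusted p = 0.338) and the acetyltransferase Ep300 at -0.49 ± 0.21 (adjusted p = 0.364). Smarca4 read 249, 332 and 206 in RYGB-Success, 397, 278 and 346 in RYGB-Fail and 409, 642 and 603 in Pair-Fed hypothalamus. Its RYGB-Success and Pair-Fed arrays did not overlap. Ncor1 read 1330, 1174 and 467 in RYGB-Success against 1552.5, 1325 and 1840 in Pair-Fed hypothalamus. Those arrays overlapped, and the third RYGB-Success array was the lowest by far.

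Genes that start hormone release could be followed in hypothalamus only, where 3 of 11 listed passed the filter on low signal and none passed the test. Crh, the releasing hormone of the stress axis, read 234, 233 and 357 in RYGB-Success, 207, 206 and 151 in RYGB-Fail and 178, 212 and 125 in Pair-Fed rats. All 3 RYGB-Success arrays lay above the 6 others, by 0.68 ± 0.31 over Pair-Fed (adjusted p = 0.373) and 0.53 ± 0.31 over RYGB-Fail (adjusted p = 0.784). Avp, vasopressin, which strengthens the action of Crh on the pituitary, read 1849, 1232 and 4851 in RYGB-Success, 2670.3, 1166 and 1902 in RYGB-Fail and 485, 1410.4 and 1028 in Pair-Fed rats, with overlap between all groups (1.32 ± 0.48 for RYGB-Success against Pair-Fed, adjusted p = 0.295). Crhbp, the binding protein that holds Crh inactive, read 66.6, 58.1 and 51.1 in RYGB-Success against 94.2, 80.8 and 179 in Pair-Fed rats (-0.93 ± 0.48, adjusted p = 0.427).

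Immediate early genes, which Dusp1 is often counted among, had negative medians against Pair-Fed hypothalamus in both bypass groups, and none passed. Of 13 listed 10 were tested. In RYGB-Success 7 of the 10 were below 0 and 4 of the 10 were lower at an unadjusted p under 0.05, with a median of -0.59. At that level were 13.1% of all probe sets in either direction, with 1154 of 18625 lower. In RYGB-Fail 9 were below 0 and 3 had an unadjusted p under 0.05 (2.39% of all in either direction, 108 of 18625 lower), with a median of -0.55. RYGB-Success against RYGB-Fail gave 5 above and 5 below 0, with a median of -0.02. Nr4a3, an orphan nuclear receptor, read 1391, 1051 and 740.3 in RYGB-Success, 1762, 1422 and 2823 in RYGB-Fail and 3646, 2169.6 and 3506 in Pair-Fed rats (-1.56 ± 0.30, unadjusted p = 0.00016, adjusted p = 0.19). Egr2, a zinc finger factor induced by neuronal activity, read 276, 324 and 340.2 in RYGB-Success, 854, 192 and 555 in RYGB-Fail and 1085, 1581 and 1377 in Pair-Fed rats (-2.09 ± 0.41, adjusted p = 0.19). For both genes the RYGB-Success arrays lay wholly below the Pair-Fed arrays. Nr4a1 differed by -1.43 ± 0.42 (adjusted p = 0.231). In fat these genes went both ways. Nr4a3 lay higher, at 904, 742 and 852 in RYGB-Success, 571, 286 and 627 in RYGB-Fail and 515, 446 and 396 in Pair-Fed rats (0.88 ± 0.37 against Pair-Fed, adjusted p = 0.972). Atf3 was higher too, at 464, 498 and 1371 in RYGB-Success against 450, 331 and 289 in Pair-Fed fat. Fos was lower, at 2138, 2841 and 6477 against 7009, 7082 and 8585. So were Fosb, at 402, 679 and 1052 against 2343, 1240 and 1428, and Jun, at 5717, 6254 and 6937 against 11799.7, 11109 and 9990. For none of these genes did RYGB-Success and Pair-Fed fat overlap, where 18.6% of all probe sets did not.

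Relatives of the genes, 13 of 21 listed in fat and 16 in hypothalamus, gave none that passed. In RYGB-Success hypothalamus 2 were higher and 2 lower than in Pair-Fed at an unadjusted p under 0.05, where 13.1% of all probe sets were. Klf10, a factor of the same family as Klf9, read 488, 658 and 384 in RYGB-Success hypothalamus, 695, 853 and 979 in RYGB-Fail and 1409, 771 and 1252 in Pair-Fed rats. RYGB-Success lay below all others (-1.16 ± 0.28 against Pair-Fed, adjusted p = 0.215), while Klf9 itself overlapped. Zbtb20, a zinc finger repressor, also lay lower, at 824, 1787 and 1378 in RYGB-Success against 2178, 2407 and 2802 in Pair-Fed hypothalamus (-0.95 ± 0.28, adjusted p = 0.231). Pgr, the progesterone receptor, lay the other way, at 51.4, 169 and 79.1 in RYGB-Success against 18.4, 52.5 and 27.1 in Pair-Fed hypothalamus, with overlap (1.57 ± 0.65, adjusted p = 0.34). Pgr passed the filter on low signal only through the bypass groups, so its place among the 2 higher supports nothing. For the genes of mineralocorticoid response 4 of 9 were tested in each tissue, with no unadjusted p under 0.05 for RYGB-Success against Pair-Fed. Steroid metabolism and transport genes, 5 of 13 tested in fat and 3 in hypothalamus, likewise gave 0 at that level.

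Between the tissues, several of the genes differed in Pair-Fed rats. In a fit over all 18 arrays, 3 of the 9 probe sets passed for Pair-Fed fat against Pair-Fed hypothalamus, all higher in fat, where 39.5% of 21719 probe sets passed. The arrays of the tissues did not overlap for 5 of the 9, against 63.2% of all probe sets. Dusp1 was higher in fat by 1.49 ± 0.34 (limma adjusted p = 0.00171), Tsc22d3 by 1.12 ± 0.28 (adjusted p = 0.00399) and Nr3c1 by 0.78 ± 0.30 (adjusted p = 0.0433). Hsd11b1 at 0.77 ± 0.31 (adjusted p = 0.0535) did not pass, though its 3 fat arrays all lay above its 3 hypothalamus arrays. Nr3c2 was lower in fat on every array (-1.03 ± 0.60, adjusted p = 0.176). Sgk1 (-0.40 ± 0.31), Klf9 (-0.20 ± 0.26) and Fkbp5 1388901_at (0.72 ± 0.37) overlapped between tissues.

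These tissue differences depend on how the arrays are scaled, since the median over all probe sets was 0.27 in this comparison, 0.08 after quantile normalization and -0.24 after median centring. Of all probe sets that passed, 56.5% were higher in fat as deposited, 49.0% after quantile normalization and 37.1% after median centring. With arrays centred on their median none of the 9 passed, at 0.98 for Dusp1 (adjusted p = 0.0952), 0.61 for Tsc22d3 (adjusted p = 0.274) and 0.27 for Nr3c1 (adjusted p = 0.707). The Nr3c1 call was lost under 11 of 24 settings, among them leaving out any 1 of the Pair-Fed arrays of either tissue (0.69 to 0.87, adjusted p = 0.0593 to 0.128). The Dusp1 and Tsc22d3 calls were lost under 1 each, the median centring. Hsd11b1 came to pass under 7 of the 24 settings (limma adjusted p = 0.00728 to 0.0498), with the lowest p under array weights. Whether fat and hypothalamus arrays of the same number come from the same rat is not given. That number as a block was 1 of the settings under which Hsd11b1 passed (0.77, adjusted p = 0.049).

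Whether the genes move together from array to array was asked over the 28 pairs in each tissue. None of the 56 correlations passed (exact permutation test over 9 arrays, adjusted over 56 pairs), and 12 of 28 were above 0 in each tissue. The highest was Fkbp5 1388901_at with Klf9 in hypothalamus, with Pearson's r = 0.784 (2-sided exact permutation p = 0.0131, adjusted p = 0.610) and Spearman's rho = 0.733 (exact p = 0.0311, adjusted p = 0.516). Without the 2 arrays farthest from the median of Fkbp5, r was 0.527, and over deviations from the group means it was 0.939. Sgk1 and Klf9 gave r = 0.746 (exact p = 0.0218, adjusted p = 0.610) and rho = 0.650 (exact p = 0.0666, adjusted p = 0.621), with r = 0.758 without the 2 farthest arrays. Fkbp5 and Sgk1 gave r = 0.624 and rho = 0.683 (exact p = 0.0731 and 0.0503, adjusted p = 0.771 and 0.564), and r = 0.409 without the 2 farthest. Tsc22d3 had an r of -0.482 with Fkbp5 and -0.514 with Klf9 in the same arrays. The labels name no batch, so no value within batches could be given.

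**Figure D5:**
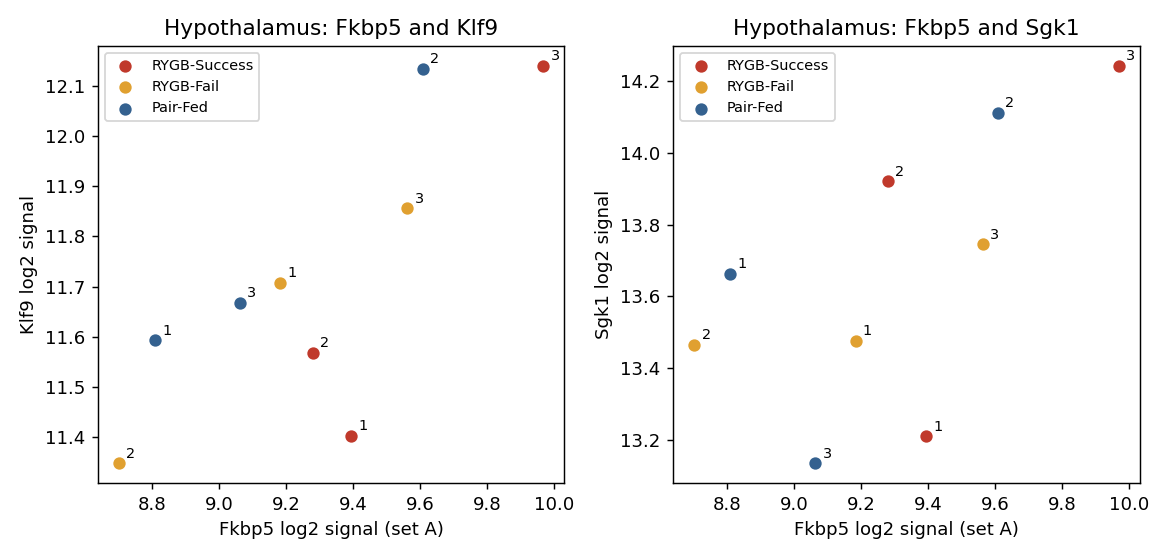
Log2 signal of Klf9 (left) and Sgk1 (right) against Fkbp5 1388901_at on the 9 hypothalamus arrays, coloured by group and numbered by replicate. The third RYGB-Success and second Pair-Fed arrays are highest for all 3 genes; r is 0.784 on the left and 0.624 on the right, neither passing after adjustment over 56 pairs.

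In fat the highest r was 0.641 for Nr3c1 with Klf9, which had a rho of 0.400 and an r of -0.160 without the 2 arrays farthest on Nr3c1. Sgk1 and Klf9 had an r of -0.557 in fat, which turned to 0.547 after median centring of the arrays. Over 10144 named genes, Fkbp5 in fat was most like Sema3e (r = 0.924 over 9 arrays), Btc (0.872) and Bcl9l (0.863), and Tsc22d3 most like Bcat2 (0.912), Smc5 (0.826) and Wfdc1 (0.801). Over 10437 genes in hypothalamus, Fkbp5 was most like Dtx2 (0.946), Spsb1 (0.944) and Frat2 (0.943), and Tsc22d3 most like Armc1 (0.906), Vti1a (0.900) and Dnaja3 (0.893). Among all genes ranked by likeness to Fkbp5 in hypothalamus, Klf9 was at place 113 and Sgk1 at 697, while in fat Sgk1 was at 2623 and Klf9 at 7591.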

How the data were processed

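Per the labels' protocols, Qiagen RNeasy kits gave the RNA and NuGEN WT-Ovation the labelled cDNA. The deposited intensity values, 1 per probe set, were made by the authors; per the submitters' processing notes MAS5 and GCOS were used, with versions not given in the sources used here. On every deposited array the mean after trimming 2% at each end lay at 500.1 to 500.2, so the values were already scaled. Detection calls were not used, and the number of arrays limits the precision.

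Of 31099 probe sets, 57 array controls were left out, 20826 had 1 gene symbol, 436 several and 9780 none. Probe sets with several symbols named no gene. Differences are of log2 signal with no pseudocount. Probe sets were ranked by mean log2 signal, and the top 60%, 18625 in each tissue, were tested with limma 3.58.1 in R 4.3.3 (lmFit, eBayes with trend) over the 9 arrays of a tissue, with Benjamini-Hochberg adjustment over all of them. The 18-array fit used 21719 probe sets that passed in either tissue and, for differences between tissues, 15531 that passed in both. For each gene the brightest probe set in the tissue stood in list counts and correlations. Correlations used exact permutation tests in numpy 2.4.6, with ranks and adjustment from scipy 1.17.1. The rest was done with numpy, pandas 2.3.3 and matplotlib 3.10.9 under Python 3.11.15.

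The limma step was tested on simulated data. For RYGB-Success against Pair-Fed over 18625 probe sets it recovered 4% of changes of 1 log2, 30% of 2 and 82% of 4 in fat, and 16%, 77% and 96% in hypothalamus. For the difference between tissues in that contrast, over 15531 probe sets, it recovered 90.5% of changes of 4.

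Genes named are all probe sets of the members, up to 3 genes of lowest unadjusted p from each pathway list per comparison, Per1 and, for Fkbp5 and Tsc22d3, the 3 genes of highest correlation. H6pd values and the array values of genes in other groups or tissues were added for context. The members and lists were chosen with earlier results of these data known. Groups and replicate numbers came from the sample titles.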

Additional observations from a re-analysis of the deposited data

How the results depend on the processing

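Within tissues, 0 member probe sets passed in any group comparison under any of the alternatives: a pseudocount, no filter or the upper 40%, quantile normalization, median centring, array weights, the compared groups only, the mean of a gene's probe sets, the replicate block, and leaving out each array. Of 1230 recomputed differences, 1142 kept their direction and 88 turned sign without a call on either side. For Pair-Fed fat against hypothalamus, the 3 member probe sets that passed became 5 under quantile normalization, 5 with array weights and 0 with median centring. Leaving out 1 array gave counts of 2 to 5, the 5 without the third RYGB-Fail fat array. The labels do not say whether arrays of the same number share a rat. Between fat and hypothalamus arrays of the same group and number, correlations of their deviations ran from -0.059 to 0.204. They were not over 0.1 in every pair, and in Pair-Fed rats they were 0.161, 0.057 and 0.204. Arrays of unlike number were not compared, so these correlations cannot decide whether a rat is shared. The numbers were not used as pairs in the main fit. Between groups within a tissue the correlations ran from -0.163 to 0.290, which cannot bear on a shared rat. With the replicate number as a block (replicate block) that count was 4, with Hsd11b1 passing at adjusted p = 0.049, and the block changed no other call on a member probe set. Median centring moved the median over all probe sets to -0.27 from 0.11 in fat (RYGB-Success against Pair-Fed), and the share higher among those at an unadjusted p under 0.05 to 18.6% from 37.8%. In hypothalamus that share moved to 12.2% from 52.8%. The number of probe sets of any gene that passed was 0 in the main analysis of RYGB-Success against RYGB-Fail in fat and 1116 without the third RYGB-Fail array. It was 0 and at most 39 (array weights) in fat for RYGB-Success against Pair-Fed, 0 and at most 42 (without the third RYGB-Fail array) for RYGB-Fail against Pair-Fed in fat, and 2 and at most 65 (without the second RYGB-Success array) for RYGB-Success against Pair-Fed in hypothalamus. The causes were not tested. In fat, changes of 1 log2 were seldom recoverable with 3 arrays a group.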
